A study of Mus musculus with 2 samples.

Results

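The Rab small GTPases were described on a pair of arrays of MIN6 cells, a mouse insulinoma line that releases insulin in response to glucose. A gene was counted as a Rab where the accession of a probe carries a mouse symbol made of Rab, a number and at most a letter and a digit. This rule uses no measured value, but it was chosen with earlier results of these data known. The mouse annotation holds 59 such symbols, and 57 of them had at least 1 of the 80 Rab probes among the 39417 probes used, which name 20649 genes in all. The annotated symbols Rab36 and Rab44 were met by no probe accession. One culture carried the lentiviral vector PLVX-IRES-ZsGreen with mouse FTO (titled FTO) and the other, titled LVX and labelled control, carried the empty PLVX-IRES-ZsGreen. All cells had been exposed to lentivirus and polybrene, carried the green fluorescent marker of the vector and were at passages 15 to 20. MIN6 cells come from a tumour of a transgenic C57Bl/6 mouse and serve as a model of beta cells. Hormone genes of other islet cells, such as Gcg, also gave signal on both arrays.

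There was 1 array per condition, and both arrays lay on the same slide. No difference between them has a replicate check, so no p-value is given, and precision is limited by the number of arrays. The error given beside a log2 difference is the spot error, which combines the error estimates that the image software gave for both spots. Probes that this software marked well above background on at least 1 array were tested, and a log2 difference, FTO minus control, over 1 or under -1 is written as past 2-fold. In a bulk sample, fewer cells of a type and less RNA per cell cannot be told apart. All 12 beta cell marker genes were well above background on both arrays and none was past 2-fold, with differences of the brightest probes from -0.24 (Ins2, signals 276722 and 320363) to 0.45 (Slc2a2, 9476 and 5179, past 2 spot errors). With each array scaled by its 75th percentile, the markers of highest signal all lay lower. Ins2 then gave -0.64, Iapp -0.56, Ins1 -0.46, Chga -0.39 and, among markers of other cells, Gcg -0.35. Slc2a2, Neurod1 and Ucn3 stayed above 0 under that scaling. Gcg, the glucagon gene of alpha cells, was also bright, at 257411 and 243558, and of 12 markers of other cells 10 were well above background on both arrays and the other two, Adipoq and Cela2a, on the control-labelled array only. Of these 12, none was past 2-fold, 4 lay above 0 and 8 below with a median of -0.092, and Amy2a5, an acinar amylase (-0.71 and -0.72 on its probes), and Sst, the somatostatin gene (0.19), were past 2 spot errors. With 75th percentile scaling Adipoq (-1.09), Cela2a (-1.16) and Amy2a5 (-1.0015) were past 2-fold, where 4.7% of all named genes were. With normexp the Amy2a5 probes gave -0.23 and -0.33. The single probe of Fto, the overexpressed gene, had a log2 difference of 0.06 (spot error 0.20). Whether this probe lies within the part of Fto that the vector carries was not tested, so the arrays do not check the labels, on which every direction rests. In 6 blocks of the surface of the FTO-labelled array, 29.0% of the spots of 79 repeated probes of dim to middle signal lay low, against 1.86% elsewhere, and these are called the blocks of lost signal. In 2 other blocks, 18.2% of such spots lay low on the control-labelled array, against 1.85% elsewhere. Both sets of blocks were chosen by this percentage, so these contrasts follow from the choice. On the other array, 0.69% of such spots lay low in the 6 blocks and 0.0% in the 2 blocks.

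Rab proteins are small GTPases that switch between a GTP-bound form on a membrane and a GDP-bound form that is drawn off into the cytosol. Each marks a membrane compartment and recruits effectors that move, tether or dock vesicles there. In beta cells, Rab3 and Rab27 proteins sit on insulin granules and act in their docking and release, and Rab37 has been placed on secretory granules as well. Housekeeping Rabs such as Rab1, Rab5, Rab7 and Rab11 run the traffic between endoplasmic reticulum, Golgi, endosomes and lysosomes that most cells share.

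Signal was detected for nearly the whole family, since 56 of the 57 Rab genes passed the background limit, all of them on both arrays, and Rab38 was the only one past 2-fold. Of the 80 Rab probes, 77 were well above background on both arrays (96.3%, beside 85.5% of all named probes). That is 1 of 56 Rab genes, higher on the FTO-labelled array, where over all 18509 named genes tested 3.21% were past 2-fold in either direction and 1.31% were past it in the higher direction. Counting only probes that both arrays marked, the share was 1.45%, and by probes it was 2.48%, beside 1 of 78 tested Rab probes. A single gene is near this background, so nothing particular to the family is read from the count. No Rab gene was past 2-fold in the lower direction, against 1.9% of all named genes. By the brightest probe of each gene, 38 Rab genes lay above 0 and 18 below, where 51.6% of all named genes lay above 0, with a median log2 difference of 0.028, beside 0.0064 over all named genes tested. The difference was under 0.25 in size in 53 of the 56 Rab genes (94.6%) and in 76.3% of all named genes. The brightest probe had a mean normalized log2 signal over 10 in 78.6% of Rab genes and in 54.0% of all named genes, and among all tested named probes that bright only 0.137% were past 2-fold.

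**Figure D1:**
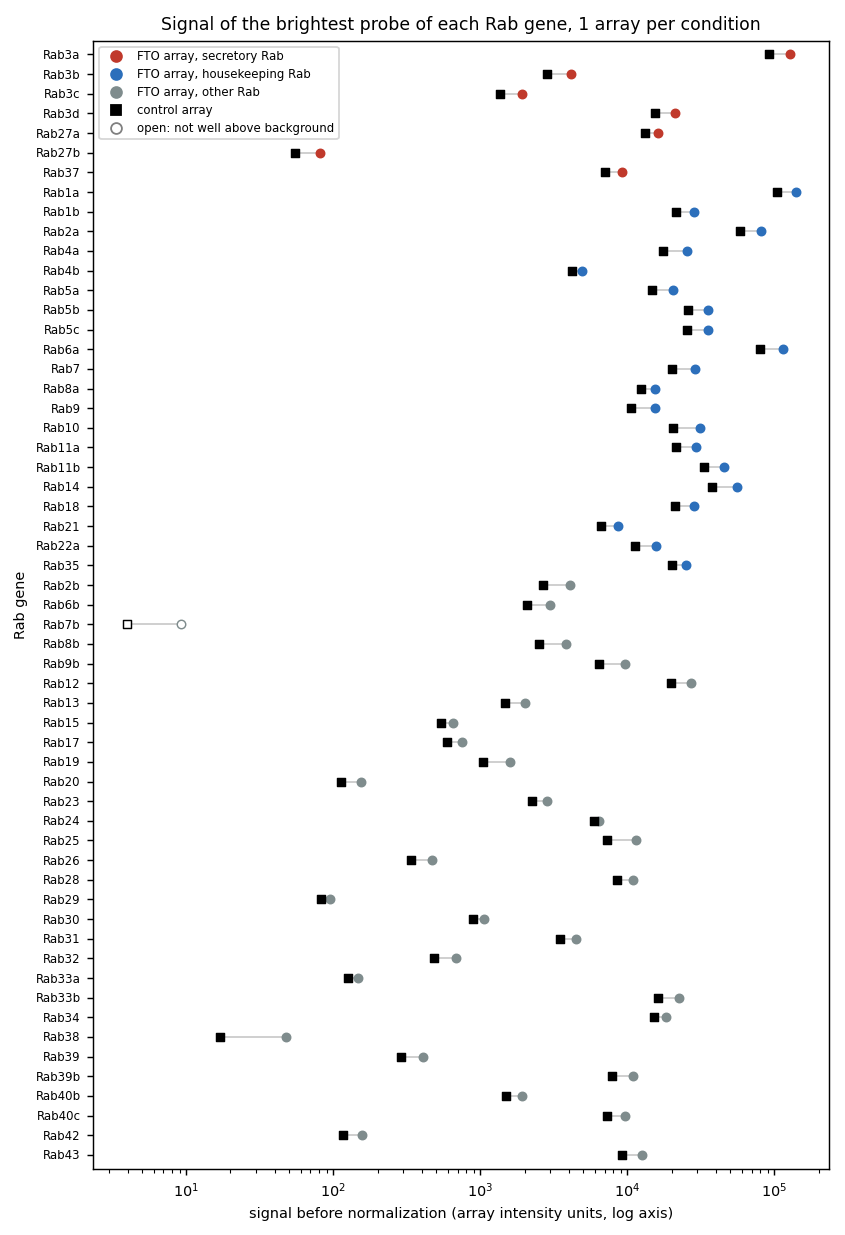
Signal before normalization (array intensity units, log axis) of the brightest probe of each of the 57 Rab genes on the FTO-labelled array (circles) and on the control-labelled array (squares), 1 array each, grouped as secretory, housekeeping and other Rabs; open symbols are not well above background. Only Rab7b is open on both arrays, and Rab38 shows the widest gap among the filled pairs; probes bind with different strength, so positions of different genes are not levels to be compared.

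The signals before normalization were higher on the FTO-labelled array for nearly every member. Only 4 of the 80 Rab probes had the lower signal there. The same held for the array as a whole, since the median signal over all probes was 259 on the FTO-labelled array and 216 on the control-labelled array, and tested named probes with a mean log2 signal over 10 had a median ratio of 1.34. A probe of Rab5a, which organises early endosomes, is printed 10 times on each array and shows how this enters the differences. Its 10 spots ran from 19702 over a median of 20566 to 21121 on the FTO-labelled array, with a mean of 20499 ± 459 (SD, 10 spots). On the control-labelled array they ran from 14492 over a median of 14839 to 15017, with a mean of 14812 ± 194 (SD, 10 spots). The spots of the 2 arrays did not overlap, with a ratio of 1.38, close to that of other bright probes. After quantile normalization the log2 difference of this probe was 0.03 with a spot error of 0.06. These spots share 1 RNA sample per array, so their spread covers the array surface and not the cultures.

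**Figure D2:**
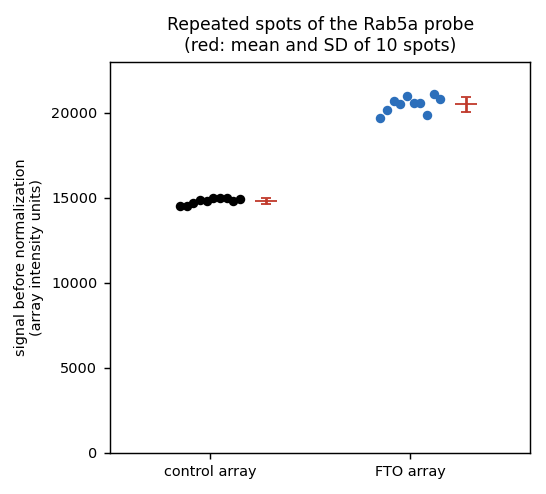
Signal before normalization (array intensity units) of the 10 spots of the repeated Rab5a probe on the control-labelled array (black) and on the FTO-labelled array (blue), with mean and SD in red. The spots lie between 14492 and 15017 on the first and between 19702 and 21121 on the second, the difference in overall brightness that normalization removes.

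The coefficient of variation of the Rab5a spots was 2.24% and 1.31%, and over the 198 repeated probes with a mean log2 signal over 10 the median SD between spots was 0.06 and 0.05 on the log2 scale. The spot error of a bright probe printed once was 0.20, so it is wider than the spread seen between repeated bright spots.

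The 7 secretory Rab genes were all well above background on both arrays, with none past 2-fold, 5 above 0 and 2 below. Their median log2 difference was 0.096, with a range of -0.15 to 0.41. Averaged over all tested probes of each gene, the median was -0.018, so the list has no settled sign.

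Rab3a, the Rab3 member best known from synaptic vesicles and insulin granules, had signals of 127920.4 on the FTO-labelled array and 91262 on the control-labelled array. The log2 difference was 0.20 (spot error 0.20) after quantile normalization and 0.06 with each array scaled by its 75th percentile. This probe lies in a block where spots lay low on the control-labelled array, and the part of that area in the value was not tested. Rab3b, another exocytic Rab3, had signals of 4148 and 2848 and a difference of 0.12 (spot error 0.20), from a probe in the blocks of lost signal. Neither gene differed by more than the error of its spots.

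Rab3d, found on secretory granules of exocrine and endocrine cells, had a pair of probes. The brighter one gave 21083 on the FTO-labelled array and 15468 on the control-labelled array, and the dimmer one gave 1241 and 1084. Their log2 differences were 0.0037 and -0.19, each with a spot error of 0.20. Rab3c had 3 probes, all well above background. The brightest had signals of 1915 and 1359 and a difference of 0.10. The other two lie in the blocks of lost signal, with differences of 0.14 (signals 810 and 574) and -0.29 (signals 766 and 723). The gap of 0.43 between the highest and the lowest Rab3c probe was 1.5 times its combined spot error of 0.29, and the sign differed, so no direction is given for Rab3c.

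Rab27a, which docks granules at the plasma membrane through its effectors, had signals of 16162.5 and 13118 on a single probe. Its log2 difference was -0.15 (spot error 0.20). Rab27b, its close paralog, was dim on both arrays. The brighter of its probes had a signal of 81.3 on the FTO-labelled array and 55.0 on the control-labelled array, a log2 difference of 0.41 (spot error 0.22), and the dimmer one had 39.6 and 42.8, a difference of -0.21 (spot error 0.26). The probes of Rab27b point in opposite directions, with a gap of 0.62 that is 1.80 times its combined error. The difference of the brighter probe was 0.14 with 75th percentile scaling and 0.14 with normexp background correction. Rab37 had a pair of probes that gave nearly the same values. One had signals of 9196 and 7082 and the other 8760 and 6560, with differences of -0.05 and -0.02.

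**Figure D3:**
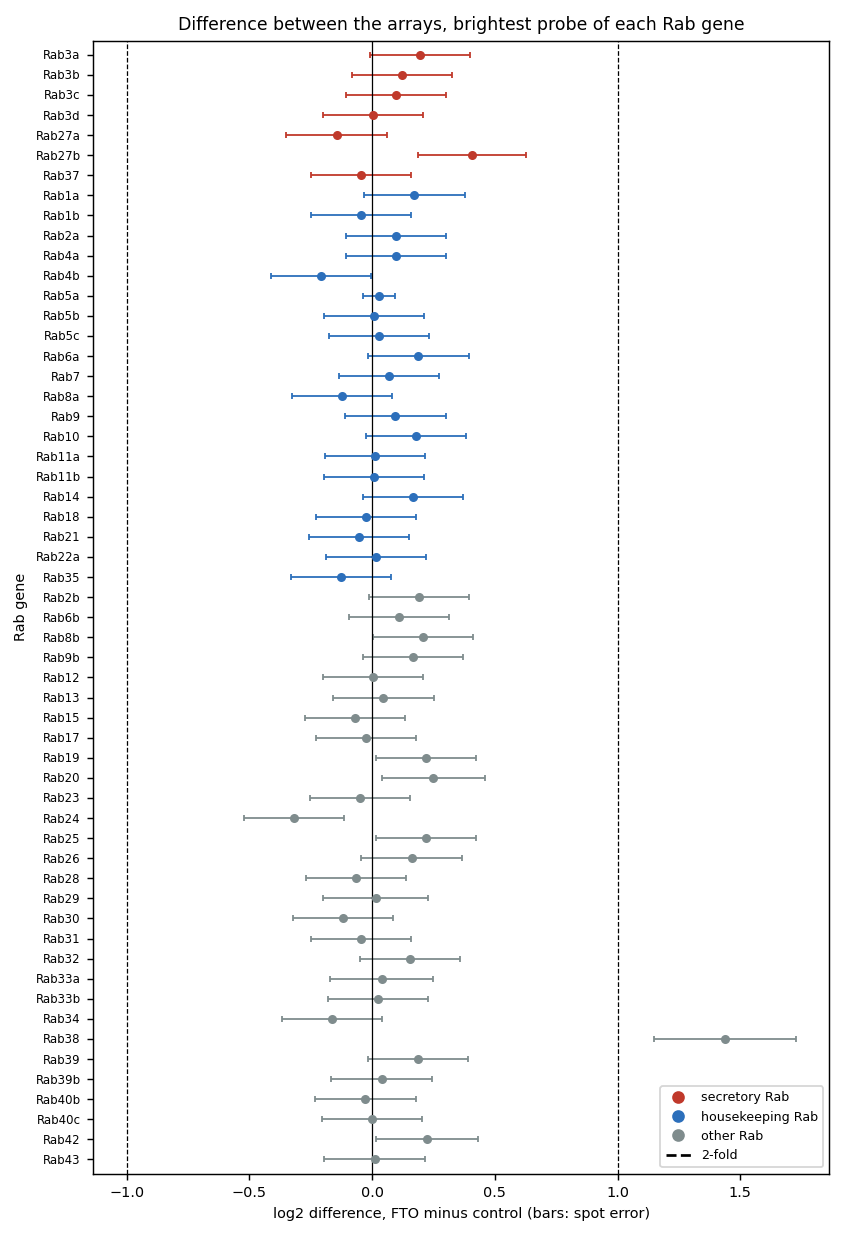
Log2 difference, FTO minus control, after quantile normalization for the brightest tested probe of each of 56 Rab genes, with bars for the spot error and dashed lines at a 2-fold difference. Rab38 at 1.44 is the only point past 2-fold, and 53 of the 56 points lie within 0.25 of 0.

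The 20 housekeeping Rab genes were likewise all well above background on both arrays, with none past 2-fold. The differences of their brightest probes ran from -0.21 to 0.19 with a median of 0.022, and 14 lay above 0 and 6 below. Signals of their brightest probes ran from 4892 to 140167 on the FTO-labelled array and from 4203 to 103495 on the control-labelled array. Only Rab4b, of recycling endosomes, differed there by more than its spot error, at -0.21 (spot error 0.20), with signals of 4892 and 4203.

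Among the Rabs of the endoplasmic reticulum and Golgi, Rab1a, which acts in transport from the endoplasmic reticulum to the Golgi, gave 140167 and 103495, with a log2 difference of 0.17. Its paralog Rab1b had signals of 28184 and 21426 and a difference of -0.045. Rab6a, of retrograde traffic at the Golgi, had 113888 and 80126 and a difference of 0.19. Rab1a, Rab3a and Rab6a have the brightest Rab probes, and their differences were 0.01, 0.06 and 0.08 with 75th percentile scaling. The size of a difference at this end of the signal range therefore moves with the scaling. Rab2a (80925 and 58525) differed by 0.10 and Rab18, of lipid droplets and the endoplasmic reticulum (28229 and 21168), by -0.02.

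For early endosomes, Rab5b and Rab5c gave differences of 0.0066 and 0.03 on their brightest probes, beside the 0.03 of Rab5a. Rab21, which carries integrins, gave -0.055 and Rab22a gave 0.02. In recycling, Rab4a gave 0.10, Rab11a 0.01, Rab11b 0.0074, Rab14 0.17 and Rab35 -0.13. Late endosomal Rab7 and Rab9, which act towards lysosomes and back to the Golgi, gave 0.07 and 0.095. Rab8a and Rab10, which carry vesicles to the plasma membrane, gave -0.12 and 0.18. In each of these genes the difference was smaller than the spot error. The brightest probes of Rab2a, Rab5c, Rab7, Rab11a, Rab11b and Rab22a lie in the blocks of lost signal. The list holds pairs of near paralogs with opposite signs, such as Rab4a and Rab4b, and no compartment had a difference past 2-fold.

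Among the other Rabs, most of them known from particular tissues or less studied, 29 of 30 genes were tested, 19 above and 10 below 0, with a median of 0.038. Rab38, which acts with Rab32 in the making of melanosomes and other lysosome-related organelles, reached 47.8 on the FTO-labelled array, beside 16.9 on the control-labelled array, by 1 of its probes. Both signals were well above background, where the lowest such signal was 13.1 and 10.1. The log2 difference was 1.44 (spot error 0.29), a 2.71-fold difference. Its second probe had signals of 7.49 and 7.45 and was marked by neither array. With normexp background correction the difference was 0.48, under 2-fold, and with 75th percentile scaling it was 1.07. Among all tested named probes with a mean log2 signal of 4 to 6, where this probe lies, 5.42% were past 2-fold. The probe lies outside the blocks of lost signal. Rab32, its nearest functional partner, had signals of 687 and 487 and a difference of 0.15 (spot error 0.20).

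**Figure D4:**
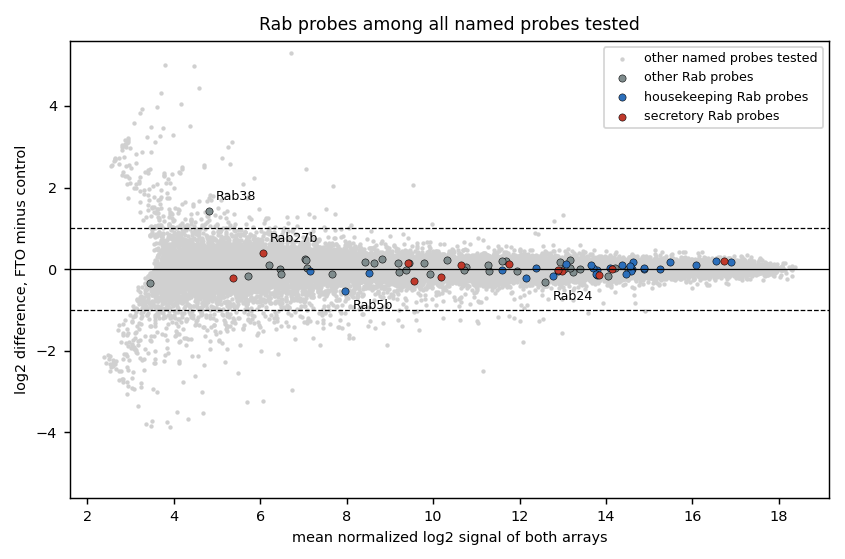
Log2 difference, FTO minus control, against the mean normalized log2 signal of both arrays for Rab probes (coloured by class) and all other named probes tested (grey), with dashed lines at a 2-fold difference. Rab38 at a difference of 1.44 is the only tested Rab probe past 2-fold and lies in the dim range. Of all tested named probes with a mean log2 signal of 4 to 6, 5.42% were past 2-fold, beside 0.137% of those over 10.

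Rab38 was also the only Rab gene past 2 spot errors on its brightest probe, where 8.52% of all named genes were past 2 spot errors. Among the other Rabs, next in size came Rab24, an unusual Rab linked to autophagy, with signals of 6375 and 5931 and a difference of -0.32, which is 1.56 times its spot error of 0.20. It lay between -0.33 and -0.32 under the other normalizations. Rab20, of phagosomes and endosomes, had signals of 154 and 113 and a difference of 0.25 (spot error 0.21), and 0.03 with 75th percentile scaling. Rab25, a Rab11 relative of epithelial cells, had 11435 and 7309 and a difference of 0.22, Rab42, in the blocks of lost signal, had 157 and 116 and a difference of 0.22 (0.0096 with 75th percentile scaling), and Rab19 had 1583 and 1044 and a difference of 0.22. Rab8b, a paralog of Rab8a, gave 0.21 and 0.15 on a pair of probes, the second in a block low on the control-labelled array. These genes, with Rab4b and Rab27b, were the remaining ones whose brightest probe differed by more than 1 spot error, and all were under 2-fold. Rab26, which acts on secretory granules but is not in the secretory list, had signals of 472 and 336 and a difference of 0.16 on a probe in the blocks of lost signal. Rab29 had 1 probe with signals of 94.3 and 82.2 and a difference of 0.01, and a second that was well above background on the control-labelled array only, with signals of 9.59 and 12.3. No fold is given for the second probe because its bound is under 1. Rab7b, a Rab of late endosomes and the Golgi, had a single probe with signals of 9.27 and 3.94 that neither array marked, and it was not tested.

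The remaining 19 of the other Rabs ran from -0.16 to 0.19 on their brightest probes. At the upper end, Rab2b, the paralog of Rab2a, had signals of 4076 and 2685 and a difference of 0.19, and Rab39 had 411 and 289.8 and a difference of 0.19. Rab9b, the paralog of Rab9, gave 0.16 and Rab6b, the neuronal Rab6, gave 0.11. Each lay within its spot error, and the probes of Rab2b, Rab9b and Rab6b lie in the blocks of lost signal. At the lower end, Rab34, which acts in the making of cilia, had signals of 18439 and 15264 and a difference of -0.16, also in these blocks, and Rab30, of the Golgi, gave -0.12 on its brightest probe and 0.10 on a dim one. Rab33b, a Golgi Rab that binds the autophagy machinery, gave 0.02 on a bright probe (22295 and 16110.2) and 0.25 on a dimmer one in the blocks of lost signal (553 and 367). Rab23, a regulator of Hedgehog signaling, gave -0.05 and 0.14, Rab15 gave -0.07 and -0.17, and Rab17, of epithelial cells, gave -0.02 and -0.13. Rab12, Rab13, Rab28, Rab31, Rab33a, Rab39b, Rab40b, Rab40c and Rab43 lay between -0.06 and 0.05 on their brightest probes, of which those of Rab12, Rab28 and Rab40b lie in the blocks of lost signal.

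Of the 57 Rab genes, 19 had more than 1 probe and 18 had more than 1 tested probe. In 11 of these 18 the highest and the lowest probe differed in sign. The gap between them was within its combined spot error in 15, over it in 3 (Rab27b, Rab3c and Rab5b), and over 2 combined errors in none. Rab5b had 4 tested probes. The brightest gave signals of 35169 and 25845, and the others gave 396 and 338, 228 and 271, and 151 and 134. Their log2 differences were 0.0066, -0.10, -0.54 and -0.05. The probe at -0.54 (spot error 0.21) lies in the blocks of lost signal, and the other probes of Rab5b lie outside them. The part of that area in the value was not tested. In all, 21 tested Rab probes lie in these blocks. The brightest probe of 16 Rab genes does, and these genes had a median difference of 0.048, beside 0.024 for the 40 genes outside.

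**Figure D5:**
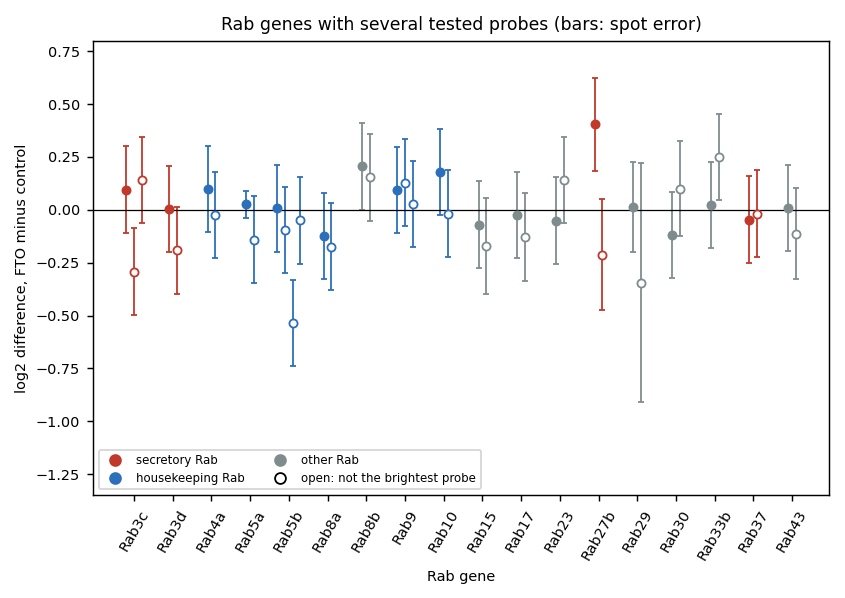
Log2 difference, FTO minus control, for each tested probe of the 18 Rab genes with several tested probes, with bars for the spot error; filled points are the brightest probe of a gene. Probes of Rab37 (-0.05 and -0.02) nearly coincide, while those of Rab27b (0.41 and -0.21) and Rab5b (0.0066 to -0.54) lie apart.

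The proteins that load, switch and read the Rabs were covered by 4 lists with 66 genes, all tested. None was past 2-fold, 40 lay above 0 and 26 below, and the median was 0.067. The genes that attach the lipid anchor of Rab proteins, Rabggta, Rabggtb, Chm and Chml, gave 0.09, 0.08, 0.085 and 0.07 on their brightest probes, each within its spot error, with those of Rabggta and Chml in the blocks of lost signal. The 27 exchange factors and GTPase activating proteins had a median of 0.051, with Madd, the exchange factor of Rab3 and Rab27, at -0.23 (signals 45813 and 40156, in the blocks of lost signal) on its brighter probe and 0.20 (1028.5 and 687) on the other. Rin3, an exchange factor of Rab5, was well above background on the control-labelled array only, with signals of 8.39 and 13.0, and no fold is given because its bound is under 1. With 75th percentile scaling its difference was -1.06, the only one of the 66 genes past 2-fold under that scaling, where 4.7% of all named genes were. The subunits of the Rab3 GTPase activating complex gave -0.02 (Rab3gap1) and -0.22 (Rab3gap2). The 16 endosomal and Golgi effectors had a median of 0.0096. Of the 84 tested probes of these lists, 5 differed by more than 2 spot errors, namely Rims4, described with the secretory effectors, and dimmer probes of Tbc1d4 (0.63), Rabggtb (0.60), Rabgap1 (0.53) and Bicd1 (0.43), where 8.38% of all tested named probes did. With 75th percentile scaling these dimmer probes gave 0.34, 0.25, 0.27 and 0.34, and with normexp 0.20, 0.21, 0.34 and 0.41. The brightest probes of the latter 4 genes gave 0.08, 0.08, -0.05 and -0.04, and both probes of Tbc1d4 lie in blocks low on the control-labelled array.

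The list of secretory effectors had 15 genes, with 10 above and 5 below 0 and a median of 0.093. It takes in the whole Rims family, and whether Rims3 and Rims4 bind a Rab was not tested. With 75th percentile scaling Rims2 (-0.02), Myrip (-0.22) and Unc13d (-0.06) moved from above to below 0, so this list has no settled sign. That scaling also moved the median of all named genes, from 0.0064 to -0.0555, so these changes of sign are not particular to the list. Sytl4, or granuphilin, which binds Rab27a on insulin granules, had signals of 35325 and 20681 and a difference of 0.33 (spot error 0.20), and it lay between 0.23 and 0.38 under the other normalizations. Rims4 was the only gene of the 66 past 2 spot errors on its brightest probe, at -0.66 (spot error 0.25), from dim signals of 41.1 on the FTO-labelled array and 59.99 on the control-labelled array, and it gave -0.23 with normexp, -0.97 with 75th percentile scaling and -0.70 with cyclic loess. Rims2, a Rab3 effector of the granule release site, had 3103 and 2337 and a difference of 0.01, and Rims1 and Rims3 gave -0.05 and -0.02. Rph3a, which encodes rabphilin, had 1699.9 and 1189.7 and a difference of 0.13, and Rph3al, or Noc2, had 298 and 247 and a difference of -0.02. Among the remaining synaptotagmin-like proteins, Sytl1 gave -0.12, Sytl2 0.53 (spot error 0.29, signals 35.2 and 23.2, but 0.17 with 75th percentile scaling and 0.16 with normexp) and Sytl5 0.14. Sytl3 gave 0.31 (0.17 with 75th percentile scaling) and, on a second probe in the blocks of lost signal, -0.35. Exph5, Mlph, Myrip and Unc13d, which link Rab27 to actin motors or to the fusion machinery, gave 0.24, 0.05, 0.09 and 0.12. With 75th percentile scaling they gave 0.03, 0.0092, -0.22 and -0.06, so Myrip and Unc13d have no settled sign. The probes of Exph5, Myrip, Rims3 and Rph3al lie in the blocks of lost signal, and that of Mlph in a block low on the control-labelled array.

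Promoter windows from RefSeq (GRCm38.p6, the 250 bases before a start) were read as a property that the choice of members did not use. They were found for 48 of the 57 genes, with 60 windows, and none was listed for Rab38. The search was for the letters CG. Housekeeping Rab windows held a median of 22 CG pairs and secretory Rab windows a median of 14, beside 6 over all 32851 windows of the table. At least 10 CG pairs stood in 16 of 18 housekeeping windows, 4 of 7 secretory windows and 68.3% of all Rab windows, beside 37.8% of all windows of the table. Windows of a gene with several starts were counted separately. The 18 housekeeping windows come from 17 genes and the 7 secretory windows from 5 genes, with none for Rab27b and Rab37. Of the sequences below, Rab5a and Rab3a show CG-rich windows of the Rabs described above, with 23 and 16 pairs, and Rab3b shows the sparser kind, with 6. The windows lie at chr17:53478984-53479233, chr8:70754453-70754702 and chr4:108878820-108879069, all on the plus strand. They are written 5′ to 3′ with CG pairs in capitals.
Rab5a: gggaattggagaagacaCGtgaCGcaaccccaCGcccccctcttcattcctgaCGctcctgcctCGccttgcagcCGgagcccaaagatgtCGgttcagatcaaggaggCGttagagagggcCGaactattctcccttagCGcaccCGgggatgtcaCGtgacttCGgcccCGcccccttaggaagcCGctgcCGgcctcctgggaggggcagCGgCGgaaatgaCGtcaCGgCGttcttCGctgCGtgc
Rab3a: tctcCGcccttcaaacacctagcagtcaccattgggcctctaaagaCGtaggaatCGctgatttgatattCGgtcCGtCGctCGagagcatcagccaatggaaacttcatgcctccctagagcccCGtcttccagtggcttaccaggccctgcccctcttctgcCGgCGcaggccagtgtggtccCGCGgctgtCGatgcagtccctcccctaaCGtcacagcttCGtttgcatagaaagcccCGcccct
Rab3b: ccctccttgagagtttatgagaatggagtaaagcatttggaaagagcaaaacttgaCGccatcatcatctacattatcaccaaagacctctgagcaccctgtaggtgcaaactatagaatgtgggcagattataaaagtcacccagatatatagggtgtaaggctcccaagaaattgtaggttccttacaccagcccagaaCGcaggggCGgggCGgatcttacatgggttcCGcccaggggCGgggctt
Both strands hold the same CG pairs, and the arrays carry no measurement of these windows, so they stand beside the signals as description. Rab3b, with few CG pairs, and Rab5a, with many, had differences of 0.12 and 0.03, neither beyond the spot error of 0.20 or, for the repeated probe, 0.06.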

How the data were processed

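Total RNA of both cultures was labeled with Cy3 and hybridized to one-color Agilent mouse arrays. The deposited spot tables hold the intensity of each spot from Feature Extraction 11.0.1.1, with local background subtracted and the surface trend removed by the authors' software, its error estimate and its flags, in other (0 or 1) columns. The deposited processed table holds log2 values that the authors had quantile normalized in GeneSpring GX, which served as an alternative. Other alternatives were 75th percentile scaling, cyclic loess, normexp on median spot intensities, and other rules for dim, flagged, repeated or low-lying probes. Here control and outlier spots were dropped, log2 signals of repeated spots were averaged, and quantile normalization was run in limma 3.58.1 (R 4.3.3), with further steps in Python 3.11.15. The calling was tested on simulated data with planted changes larger than the difference of Rab38. A difference of that size was not covered. Probes were named where their accession, without version, has 1 symbol in the RefSeq annotation GRCm38.p6 (27218 of 39417 probes), and the array design lists another build, so no probe coordinates are given. The brightest tested probe stands for a gene in medians, and any tested probe in counts past 2-fold. Blocks of 76 rows and 17 columns were set apart as blocks of lost signal where 15% or more of repeated spots fell over 0.5 (log2) short of their probe's median. Named with values were all secretory and housekeeping Rabs, other Rabs past 2-fold, past 2 spot errors or well above background on 1 array only, Rabs whose probes differ in sign by more than their errors, the secretory effectors and other list genes past 2 spot errors. The further Rabs, Madd, Rin3, the Rab3gap genes and the printed promoters were added after values were seen. The members and lists were chosen with earlier results of these data known. The values of 1 gene of the regulator lists are not reported here.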

Additional observations from a re-analysis of the deposited data

How the results depend on the processing

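The count of 1 Rab gene past 2-fold held under 8 of 10 other settings. With normexp background correction (offset 50) it was 0, where 62 of all named genes remained past 2-fold, and with no filter on background it was 2, because Rab7b, not well above background on either array, was then counted. Over all named genes, 40.9% of the 594 past 2-fold were higher, against 16.6% of 869 with 75th percentile scaling, 29.0% of the 62 with normexp and 49.2% of 1111 with no filter, and 257 and 304 genes passed with both arrays required or the blocks of lost signal left out. The median of the Rab genes lay between 0.022 and 0.058 over the settings, that of the housekeeping Rabs between 0.014 and 0.062, that of the regulators and effectors between 0.018 and 0.074, and that of the secretory Rabs between -0.018, averaged over probes, and 0.10. Of 543 values of single Rab genes under other settings, 533 moved by less than the spot error. The background filters, the floor for dim signals and the omitted blocks leave the value of a brightest probe as it was. The authors' processed values are quantile normalized as well. This count and the 8 of 10 settings above therefore hold in part by construction and do not measure robustness. Rab38, the gene past 2-fold, stayed above 0, while 13 other Rab genes had values on both sides of 0, such as Rab29 (-0.23 to 0.09) and Rab33a (-0.19 to 0.04). The lowest values of Rab29 and Rab33a came from 75th percentile scaling, which moved the median of all named genes from 0.0064 to -0.0555. The 10 values that moved further belong to Rab20, Rab27b, Rab29, Rab33a, Rab38, Rab42 and Rab5a. All came from 75th percentile scaling, normexp or averaging over probes. The causes were not tested. Without the blocks of lost signal on either array, 39 Rab genes could be used, and the secretory median was 0.0037 over 5 genes. Dim signals limit Rab27b, Rab29, Rab38 and Rab7b. No paired analysis was possible because there is 1 array per condition.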
